A study of Mus musculus with 32 samples.

Results

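The mitochondrial ribosomal protein genes are here the nuclear genes whose symbol begins with Mrps or Mrpl and goes on with a number. The letters are named for the small and the large subunit, and where each protein sits was not checked. The rule for members reads the symbol and no measured value, though the family was picked for description with earlier results of these data known, and 77 of the 43345 mouse genes in each deposited count table fit, 29 Mrps and 48 Mrpl genes. All 77 passed the filter on low counts in both cell systems, so every count below is over the full set. They lie on 17 chromosomes and carried 0.261% to 0.372% of the mouse counts of a library.

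The mitochondrial ribosome translates the mRNAs of the mitochondrial genome, which encode core subunits of the respiratory chain and of ATP synthase. Its RNA comes from mitochondrial DNA, while its proteins are made in the cytosol from nuclear genes and imported, so the small subunit (which reads the mRNA) and the large subunit (which forms peptide bonds) depend on transcription by RNA polymerase II. Many of these proteins descend from bacterial ribosomal proteins, and others exist only in mitochondria. Activated B cells enlarge their mitochondria and their protein synthesis as they grow and divide.

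RNA was sequenced from 32 libraries of mouse B cells with and without ELOF1, an elongation factor that rides on RNA polymerase II. In CH12F3, a B lymphoma line stimulated with an antibody to CD40, IL4 and TGF-β, every culture carried an Elof1 knockout, to which either an ELOF1 construct (called ELOF1) or an empty vector (called vector) had been added. Day 1.5 has 4 libraries per genotype, and days 3 and 7 have 2 per genotype each. Primary spleen B cells were wild-type (WT) or conditional Elof1 knockout (cKO) and were stimulated with IL4 and LPS, and they gave 5 libraries per genotype on day 2.5 and 3 on day 3.5. The labels name neither the Cre driver nor the age of the mice, and do not say how many knockout clones were used or whether repeats came from separate cultures or mice. P-values therefore measure the spread between these libraries, which may be technical. The questions are whether the family follows ELOF1, the day of culture or the cell system.

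Mouse totals were 7112130 to 15550229 counts in CH12F3 and 9807560 to 16359477 in spleen, and Mrps28 had 80 counts or more in each library. Elof1 checked the labels: it was at 140 to 681 CPM (read counts scaled to a common library size by TMM) in ELOF1 libraries against 0.966 to 5.49 in vector libraries, and at 10.99 to 55.1 CPM in WT against 1.27 to 7.65 in cKO spleen cells. The 8 B cell markers were all detected in every group. Markers of T and NK cells summed to 62.7 to 209.98 CPM and those of myeloid cells to 68.6 to 251 CPM in CH12F3, against 0.401 to 15.7 and 10.1 to 31.7 CPM in spleen. Of the 9 T and NK markers, 3 passed the filter on low counts in CH12F3 and 1 in spleen. Cd28 was the highest of them in every group. Of the 9 myeloid markers 4 passed in each system, with Csf1r or Adgre1 highest in CH12F3 and Cd68 in spleen. Sums of so few expressed genes do not by themselves show that such cells were present. Library names carry numbers in a low range, called the first series here, and in a high range, called the second. The 8 libraries of the first series are repeats 1 and 2 of both CH12F3 groups at day 1.5 and repeats 4 and 5 of both spleen groups at day 2.5, and the series was a term in each fit. Because RNA was taken from cells in bulk, fewer cells of a type and less RNA per cell cannot be told apart.

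Sequence at the start of these genes is shown first, since the family is known for promoters that lack a TATA box and are bound by NRF1, by ETS factors such as GABP and by YY1. RefSeq windows (build GRCm38.p6, from 250 bases before to 50 bases after the annotated start) matched 68 of the 77 members with 74 windows. Mrpl38, Mrpl4, Mrps34, Mrps35, Mrpl19, Mrpl54, Mrpl13, Mrpl15 and Mrps28 were not matched. Exact letters were searched on both strands. The NRF1 half-site TGCGCA stood in 22 of the 74 member windows (29.7%), against 7.75% of all 32817 windows. The ETS core CCGGAAG stood in 25 (33.8%, against 8.86%), and the YY1 core AAGATGGC in 12 (16.2%, against 2.74%). Matches to these 3 strings may overlap each other. The E-box CACGTG was in 7 (9.46%, against 7.15%), the CCAAT box in 29 (39.2%, against 37.4%) and TATAAA in 5 (6.76%, against 13.6%). Member windows were also richer in G and C, with a median of 58.8% against 52.7%, which these shares were not adjusted for.

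The upstream sequences of Mrpl10, Mrpl58 and Mrps15 are printed because these were the members, beside Mrps28, that passed the test of genotype. They stop before the first exon, read 5′ to 3′ on the gene's strand, and have any match to the NRF1, ETS and YY1 strings in capitals. Mrpl10 (chr11:97041408-97041559, plus strand) holds the NRF1 half-site, Mrpl58 (chr11:115403502-115403751, plus strand) holds that half-site and the ETS core, and Mrps15 (chr4:126046678-126046924, plus strand) holds none of them.
Mrpl10: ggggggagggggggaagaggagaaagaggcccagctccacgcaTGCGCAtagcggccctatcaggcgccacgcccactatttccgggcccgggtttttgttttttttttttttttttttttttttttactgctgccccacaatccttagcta
Mrpl58: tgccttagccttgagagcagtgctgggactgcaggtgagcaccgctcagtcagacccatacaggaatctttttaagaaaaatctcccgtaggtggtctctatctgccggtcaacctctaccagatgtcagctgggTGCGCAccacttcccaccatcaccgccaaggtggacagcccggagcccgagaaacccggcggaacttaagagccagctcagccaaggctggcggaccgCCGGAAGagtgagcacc
Mrps15: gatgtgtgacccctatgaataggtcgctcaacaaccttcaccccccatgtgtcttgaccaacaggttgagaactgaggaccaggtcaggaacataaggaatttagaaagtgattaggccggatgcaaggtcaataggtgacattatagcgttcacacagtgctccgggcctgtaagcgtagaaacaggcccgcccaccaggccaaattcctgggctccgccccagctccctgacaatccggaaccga

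Levels between members were compared per length, as RPKM (CPM per kb of exon in the deposited gene model). They spanned 2.61 to 123 RPKM in CH12F3 (median 17.98) and 2.79 to 83.7 RPKM in spleen (median 18.6). In CH12F3 the highest were Mrps16 at 123 ± 37.7 RPKM (SD, n = 16), Mrpl52 at 120 ± 17.9, Mrpl12 at 79.0 ± 13.8, Mrpl4 at 58.9 ± 12.9 and Mrpl2 at 51.1. Mrps16 is a small-subunit protein with a bacterial relative, and Mrpl12 belongs to the stalk on which translation factors land. In spleen the order at the top was Mrpl52 at 83.7 ± 18.2 RPKM, Mrps16 at 75.2 ± 17.8, Mrpl12 at 73.5 ± 12.5, Mrps7 at 64.5 ± 10.6 and Mrpl9 at 52.0 ± 10.4. The upper 3 spleen genes, and Mrps16 and Mrpl52 in CH12F3, were closer to each other than their SD. The lowest 5 were the same genes in both systems: Mrpl48, Mrps35, Mrpl47, Mrps10 and Mrps25, from 6.60 ± 0.570 RPKM down to 2.61 ± 0.371 in CH12F3 and from 4.72 ± 0.607 down to 2.79 ± 0.744 in spleen. These 5 have long exonic models, 4419 to 8079 bases against a median of 1722 for the family, and a level per length divides by all annotated exons, whether or not a B cell uses them.

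**Figure D1:**
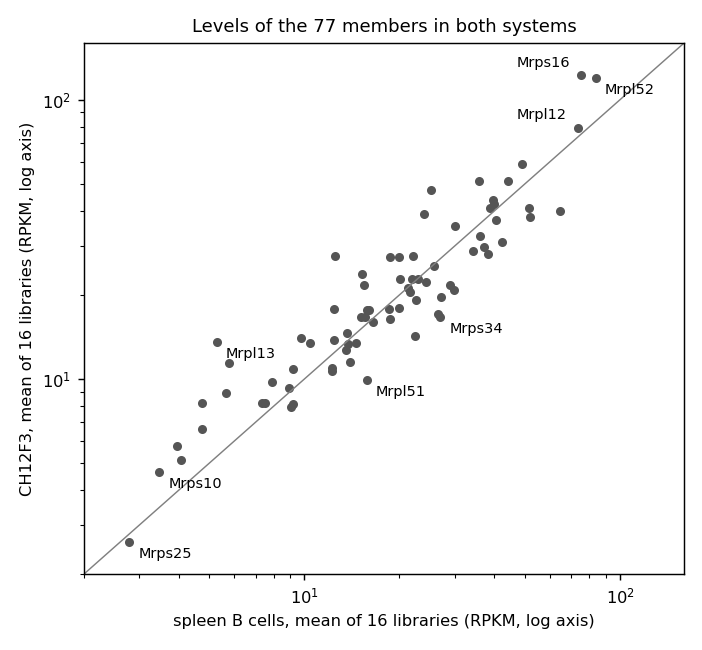
Mean level of each of the 77 members over 16 CH12F3 libraries (vertical axis, RPKM, log scale) against the mean over 16 spleen libraries (horizontal axis, RPKM, log scale), with the line of equality. Mrps16, Mrpl52 and Mrpl12 are the upper 3 genes in both systems and Mrps25 is the lowest in both.

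No common shift of the family with genotype was detected, while Mrps28 was lower in ELOF1-deficient cells of both systems. Mrps28 encodes a small-subunit protein with a bacterial relative. Its gene lies on chr3:8802146-8923918 (mm10, minus strand), spans 121.8 kb with 3 exons and an intron of 97.6 kb, and is the longest of the 77 genes and the single one of 100 kb or more. No exon of another gene overlaps it. The values behind each comparison follow, first for CH12F3.

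At day 1.5, Mrps28 measured 14.4, 18.3, 19.4 and 17.6 CPM in ELOF1 libraries and 9.96, 9.77, 12.1 and 11.99 CPM in vector libraries, in order of repeat number. Every vector library lay below every ELOF1 library, also within each library series, on 80 to 266 counts per library. Of all genes 1.93% were lower without overlap at this day. The share of all genes separated within each series was not counted, here or for the members below. Without ELOF1 Mrps28 fell 1.59-fold (log2 −0.67 ± 0.13 SE, adjusted p = 0.0225 by the edgeR quasi-likelihood test). At day 3 the ELOF1 libraries were at 22.5 and 17.1 CPM and the vector libraries at 11.8 and 12.5 CPM. The groups again did not overlap, but with 2 libraries each 16.6% of all genes were lower in this way. The log2 difference of −0.70 ± 0.17 did not pass (edgeR adjusted p = 0.826). At day 7 the values were 25.2 and 20.4 CPM against 17.2 and 16.7 CPM, a log2 difference of −0.43 ± 0.17 (edgeR adjusted p = 0.780). With days 3 and 7 pooled the log2 difference was −0.56 ± 0.12 (edgeR adjusted p = 0.0939), and with the repeat number as a block it was −0.55 and passed (edgeR adjusted p = 0.0139).

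In spleen at day 2.5, Mrps28 measured 21.5, 22.6, 26.4, 15.8 and 11.6 CPM in WT and 17.02, 15.9, 14.4, 11.1 and 7.48 CPM in cKO libraries. The groups overlapped across library series, since repeats 4 and 5 of both were lower, but within each series every cKO library lay below every WT library. Mrps28 fell 1.49-fold in cKO cells (log2 −0.57 ± 0.12, edgeR adjusted p = 0.0131). At day 3.5 the WT libraries were at 19.8, 23.2 and 24.003 CPM and the cKO libraries at 12.7, 13.999 and 13.4 CPM. They did not overlap, and 12.5% of all genes were lower in this way. Here Mrps28 fell 1.67-fold (log2 −0.74 ± 0.16, edgeR adjusted p = 0.0220). The genotype difference in Mrps28 did not itself differ detectably between days, by log2 −0.17 ± 0.20 between spleen days (edgeR adjusted p = 0.9998) and 0.11 ± 0.17 between later and early CH12F3 days (edgeR adjusted p = 1).

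**Figure D2:**
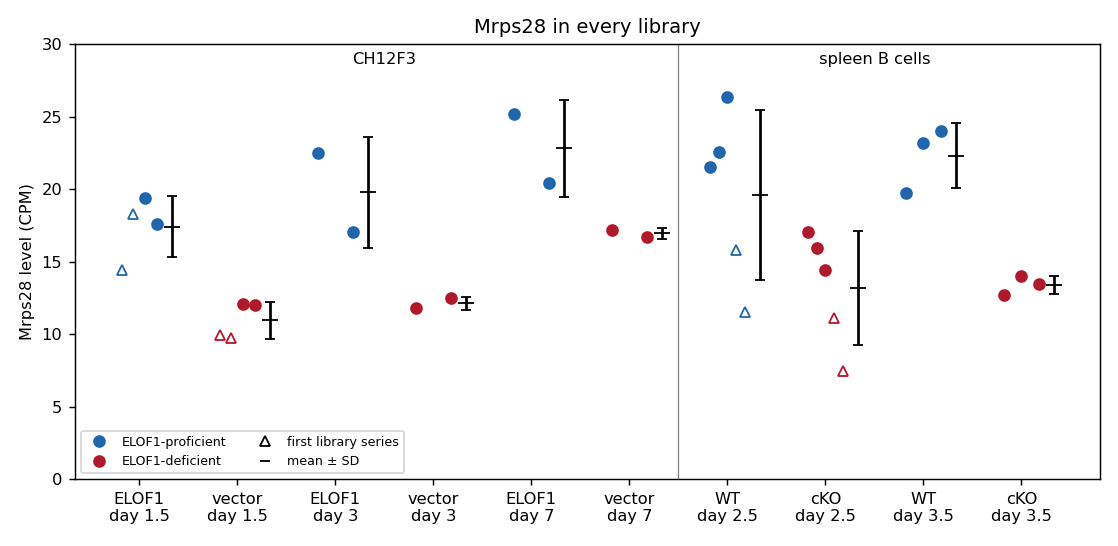
Mrps28 level (CPM, vertical axis) in each of 32 libraries by group; points are libraries, open triangles are the first library series, and dashes with bars are the mean ± SD of the group. Vector points lie below ELOF1 points on each day, and cKO points lie below WT points at day 3.5 and, within each series, at day 2.5.

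These Mrps28 calls rest on few libraries. The day 1.5 call in CH12F3 was lost in 5 of 8 fits that left out 1 library (ELOF1 repeats 2 and 3, vector repeats 1, 2 and 4, with adjusted p between 0.0537 and 0.0912 for these), and the spleen day 3.5 call was lost in all 6 such fits (edgeR adjusted p 0.0537 to 0.113). The spleen day 2.5 call held in all 10 (edgeR adjusted p 0.00730 to 0.0454). Of the alternative models with no library left out, however, only 4 of 8 kept that call. The CH12F3 day 1.5 call was kept in 3 of 8 such models and the spleen day 3.5 call in 6 of 7. Over all 84 alternative fits of the 6 genotype contrasts the Mrps28 difference was negative, from −0.997 to −0.281. These fits reuse the same libraries, and 1 contrast is the mean of 2 others, so they are not independent evidence.

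The rest of the family showed no common shift with genotype. In CH12F3 at day 1.5, 2 of 77 members were called, 1 higher and 1 lower, where 1.15% of all genes were called, 0.606% higher and 0.549% lower. The median log2 difference was 0.01 in members and 0.01 in all 14201 genes tested, and 71 of 77 members lay within 0.25 of zero. Mrpl10, a protein at the base of the stalk, was the member called higher. Its gene lies on chr11:97041560-97049213 (mm10, plus strand), with 5 exons, and an exon of Gm11574 on the opposite strand overlaps it. It measured 41.5, 37.8, 66.2 and 71.8 CPM in ELOF1 and 55.5, 59.1, 82.7 and 80.2 CPM in vector libraries. The groups overlapped as a whole and did not overlap within either library series, with a log2 rise of 0.38 ± 0.08 (edgeR adjusted p = 0.0464), a call kept in 1 of 8 fits that left out a library (that without ELOF1 repeat 4) and lost in the others at adjusted p 0.0635 to 0.162. Of members whose groups did not overlap at all, Mrps6 was higher and Mrps28 lower, 1 in each direction, where 1.78% and 1.93% of all genes did so. Mrps6 shares exon sequence on the same strand with Slc5a3, so its counts are uncertain.

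No member was called at day 3 (0.00704% of all genes called), at day 7 (0.0352%, with 0.0141% higher and 0.0211% lower) or with both days pooled (0.183%, with 0.0775% higher and 0.106% lower) by edgeR. At an unadjusted p below 0.05 there were 2, 1 and 4 members, and DESeq2 called 0, 0 and 1, the last being Mrps28. Member medians were −0.00, −0.02 and −0.02, against −0.00, 0.01 and 0.01 over all genes. Besides Mrps28 and Mrpl10 the smallest p-values were those of Mrpl54 at day 3 (log2 −0.33 ± 0.15, edgeR adjusted p = 1) and of Mrps10 and Mrps9 at day 7 (log2 −0.27 ± 0.13 and 0.20 ± 0.10, edgeR adjusted p = 0.893 and 0.903). The genotype difference changed between day 1.5 and the later days in none of the members and none of all genes (0.0%) by edgeR or, for members, by DESeq2, with 1 member, Mrps6, at an unadjusted p below 0.05.

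In spleen at day 2.5, 3 of 77 members were called, 1 higher and 2 lower, where 5.18% of all genes were called, 2.82% higher and 2.36% lower. Mrpl58 is a peptide-release factor that rescues stalled mitochondrial ribosomes and is built into the large subunit. It measured 32.9, 29.7, 34.9, 22.8 and 20.3 CPM in WT and 22.1, 25.96, 24.6, 15.3 and 17.2 CPM in cKO libraries. Within each series its cKO libraries were lower, and it fell by 0.42 ± 0.08 on the log2 scale (edgeR adjusted p = 0.00666). Mrpl58 lies on chr11:115403752-115412674 (mm10, plus strand), the antisense gene Ict1os overlaps an exon of it, and whether the counting used strand is not given in the sources used here. Mrps15, a small-subunit protein with a bacterial relative (chr4:126046925-126055532, mm10, plus strand), measured 47.5, 48.7, 50.2, 57.1 and 66.996 CPM in WT and 57.8, 64.8, 76.1, 82.4 and 72.7 CPM in cKO libraries. It was higher in cKO cells within each series and rose by 0.39 ± 0.09 (edgeR adjusted p = 0.0179), a call lost without cKO repeat 3 (adjusted p = 0.0533) or WT repeat 1 (adjusted p = 0.0556). Across both series no member had groups that did not overlap, where 1.5% of all genes were higher and 1.62% lower in this way.

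At spleen day 3.5, Mrps28 was the 1 member called, where 2.07% of all genes were called, 1.14% higher and 0.928% lower. The WT and cKO libraries did not overlap for 6 members that were higher and 8 that were lower in cKO, against 12.6% and 12.5% of all genes. The member median was −0.04 at day 2.5 and −0.01 at day 3.5, against 0.00 and −0.00 over all genes, and 71 and 65 members lay within 0.25 of zero. Mrpl15, a large-subunit protein with a bacterial relative, was not called in any genotype comparison. It measured 53.1 to 88.4 CPM (median 64.5) in WT and 53.1 to 77.6 CPM (median 60.01) in cKO at day 2.5, with a log2 difference of −0.12 ± 0.13 (edgeR adjusted p = 0.707). In CH12F3 at day 1.5 Mrpl15 measured 52.2 to 72.1 CPM in ELOF1 and 59.0 to 79.9 CPM in vector libraries, a log2 difference of 0.10 ± 0.10 (edgeR adjusted p = 0.757). At day 3 its ELOF1 libraries were at 72.7 and 71.1 CPM and its vector libraries at 67.3 and 66.3 CPM, and at day 7 at 83.3 and 80.2 CPM against 79.9 and 64.9 CPM. On both days the vector libraries were the lower ones, with log2 differences of −0.11 ± 0.14 and −0.18 ± 0.13 (edgeR adjusted p = 1 and 0.999). Non-overlap of this kind was seen for 14 members at day 3 and 15 at day 7, against 16.6% and 16.1% of all genes. At spleen day 3.5 the Mrpl15 difference was −0.04 ± 0.16 (edgeR adjusted p = 0.966). No member was called for a change of the genotype difference between spleen days (0.0% of all genes) by edgeR or DESeq2, with 1 member, Mrps15, at an unadjusted p below 0.05.

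**Figure D3:**
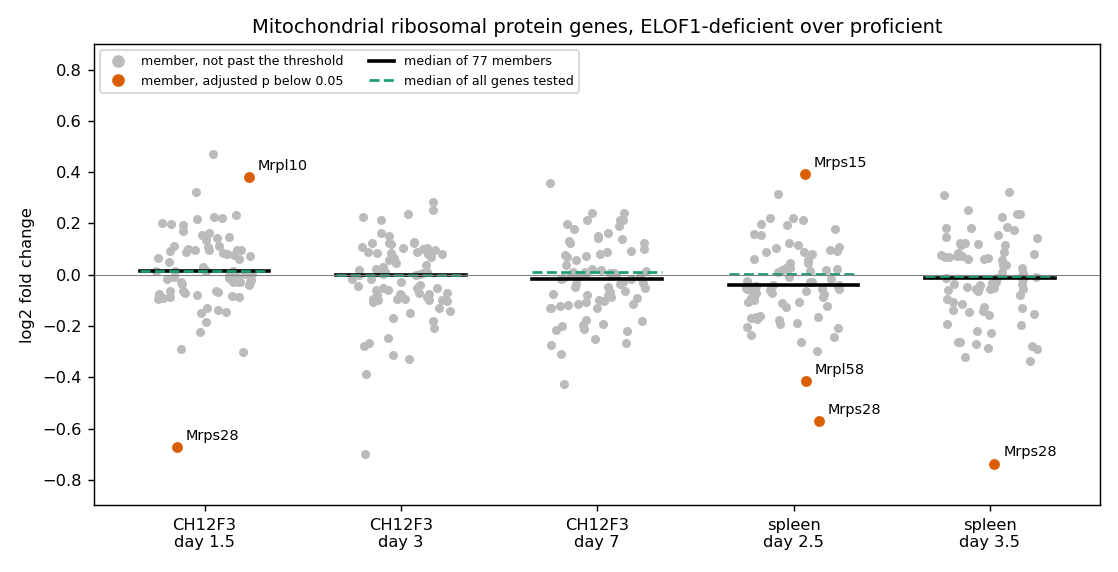
Log2 fold change of each of the 77 members, ELOF1-deficient over proficient (vertical axis), in 5 comparisons; orange points passed an edgeR adjusted p of 0.05, black bars are the member median and dashed green bars the median of all genes. Members centre on zero, and Mrps28 is the lowest point in each column.

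Scaling to the fly RNA that was added per cell, in place of TMM, moved all genes together and the members with them. The median over all genes became −0.08, −0.19 and −0.14 at CH12F3 days 1.5, 3 and 7 and −0.14 and −0.29 at spleen days 2.5 and 3.5. The members' medians became −0.08, −0.19, −0.16, −0.19 and −0.30 in the same order. They lay close to those of all genes, which follows from a shift common to all genes of a library. Under this scaling Mrps28 at spleen day 3.5 was the only member called by genotype (log2 −0.997, edgeR adjusted p = 0.0495).

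By structural role the genotype medians were as follows. Of the 4 stalk proteins Mrpl10 was called at CH12F3 day 1.5, and their medians were 0.16 there, 0.02 at spleen day 2.5 and 0.08 at day 3.5. The 6 proteins listed for the central protuberance, which contacts the small subunit, had medians of −0.01, −0.07 and −0.09. The 7 proteins listed around the exit tunnel for the new peptide had −0.07, −0.04 and −0.16, and no call fell in either list. These lists need not hold every protein of a role, and Mrpl58, called at spleen day 2.5, was in neither of them. By symbol alone, which need not give the subunit, the medians were −0.01, −0.04 and −0.01 among the 29 Mrps genes. Among the 48 Mrpl genes they were 0.02, −0.04 and −0.04.

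Gene length was set beside these differences because Mrps28 stands apart in it. Genes of 100 kb or more had a median log2 difference of −0.08 at CH12F3 day 1.5 (n = 1273), −0.13 at spleen day 2.5 and −0.15 at spleen day 3.5 (n = 1282), and 1.96%, 8.42% and 2.57% of them were called lower. Genes under 10 kb, to which 53 of the 77 members belong, had medians of 0.03, 0.06 and 0.04. After Mrps28 the longest members are Mrps27 (70.8 kb), Mrpl48 (62.5 kb), Mrpl1 (57.2 kb), Mrps9 (54.5 kb) and Mrps6 (54.0 kb), and none of these 5 was called in a genotype comparison. In spleen at day 2.5 their log2 differences were −0.18, −0.16, −0.19, −0.01 and −0.26. In CH12F3 at day 1.5 they were −0.06, −0.13, 0.01, 0.22 and 0.47, the last being Mrps6 with its shared exon sequence. The part of length in the Mrps28 difference was not tested.

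**Figure D4:**
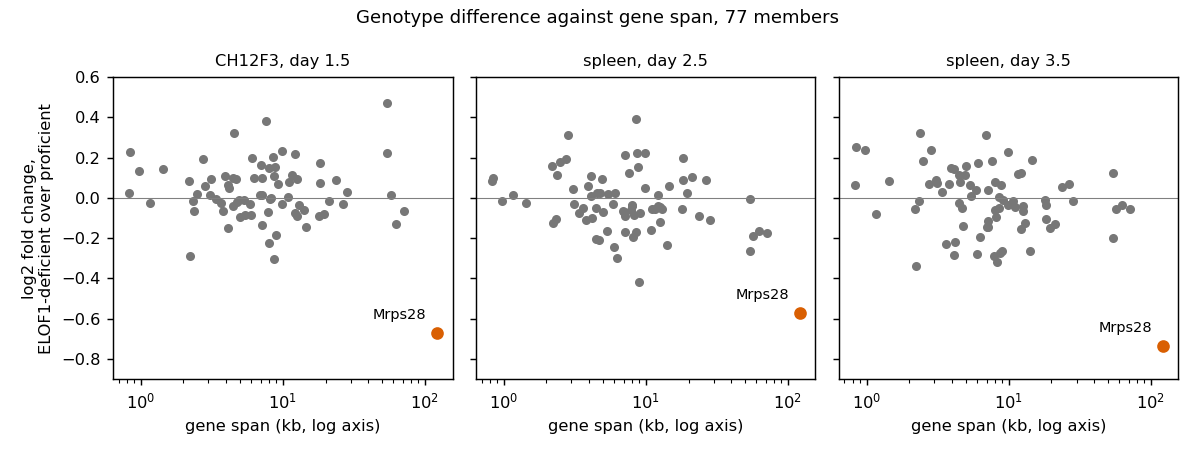
Log2 fold change, ELOF1-deficient over proficient (vertical axis), of each of the 77 members against the span of its gene (horizontal axis, kb, log scale) in 3 comparisons. Mrps28, in orange, is both the longest gene at 121.8 kb and the lowest point in each panel.

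Most of the family had lower values at day 3.5 than at day 2.5 in spleen B cells. In WT cells 68 of 77 members had a negative log2 difference and the median was −0.17, where 49.0% of all genes were negative and their median was 0.01. In cKO cells 69 of 77 were negative with a median of −0.13, against 50.1% and −0.00 over all genes. The direction was the same after scaling to fly RNA (member medians −0.25 and −0.36, all genes −0.08 and −0.22). Without the term for library series the medians were −0.07 in both genotypes, with 49 and 44 members negative (all genes −0.02 and −0.01). Few single members passed the test: 1 in WT, where 5.45% of all genes were called, 4.17% higher and 1.28% lower, and 2 in cKO, where 3.4% were called, 2.72% higher and 0.688% lower.

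Mrps26, a small-subunit protein found only in mitochondria, was called in both genotypes. In WT cells it measured 59.9, 60.03, 65.7, 41.4 and 47.7 CPM at day 2.5 and 45.3, 47.6 and 44.996 CPM at day 3.5. The values at day 3.5 lay below all 3 second-series libraries of day 2.5 but not below both of the first series. Mrps26 fell by 0.40 ± 0.09 on the log2 scale in WT (edgeR adjusted p = 0.0141). In cKO cells it measured 63.5, 66.8, 58.9, 49.4 and 52.2 CPM and then 50.3, 51.04 and 47.9 CPM, a log2 difference of −0.38 ± 0.09 (edgeR adjusted p = 0.0227). Mrpl40, a protein of the central protuberance, measured 34.3, 33.7, 30.9, 34.03 and 25.2 CPM in cKO cells at day 2.5 and 24.6, 26.4 and 21.6 CPM at day 3.5, a log2 difference of −0.45 ± 0.12 (edgeR adjusted p = 0.0439). Mrps26 lies on chr2:130563742-130568695 (plus strand), where a gene on the opposite strand overlaps it, and Mrpl40 on chr16:18872018-18876767 (minus strand), both in mm10. Leaving out 1 library ended the call of Mrps26 in WT for 3 of 8 libraries (WT day 2.5 repeat 3, WT day 3.5 repeats 1 and 3, adjusted p 0.0512 to 0.0618), and in cKO for 5 of 8 (day 2.5 repeats 1 and 2 and every day 3.5 repeat, adjusted p 0.05998 to 0.129). The Mrpl40 call was lost in 6 of 8 such fits, those without day 2.5 repeats 1, 2 and 3 or any day 3.5 repeat (adjusted p 0.0549 to 0.238).

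The second library series holds 3 repeats of each spleen group and allows the days to be compared within it. The median deviation of the 77 members from their mean log2 level over the spleen libraries was 0.07 to 0.19 in its 6 libraries of day 2.5 and −0.08 to 0.05 in its 6 libraries of day 3.5, without overlap. In a fit of this series alone 12 members were called lower in WT and 7 in cKO, none higher, where 15.6% and 13.1% of all genes were called in either direction. The share of all genes called lower in that fit is not given here. Without that share the counts cannot show whether members stand out or not. Plasma cell markers, all detected in each group, summed to 628 to 988 CPM at day 2.5 and to 983 to 1561 CPM at day 3.5. T and NK cell markers summed to 0.401 to 3.39 and 6.13 to 15.7 CPM, with Cd28 the highest in every group and 1 of the 9 past the filter. The part of these markers in the result was not tested. The difference of the day effects between WT and cKO had a member median of 0.05.

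In CH12F3 no member was called by day with edgeR or DESeq2. From day 1.5 to day 3 the member median was −0.04 (all genes −0.00, 0.218% called) and turned to 0.13 when the series was left out of the model. With the series in it, 25 members were positive and 3 had an unadjusted p below 0.05, and Mrpl44 (an exit-tunnel protein related to RNases), Mrpl18 and Mrps21 had the smallest p-values, at log2 0.28 ± 0.09, −0.24 ± 0.11 and −0.28 ± 0.13 (edgeR adjusted p = 0.353, 0.553 and 0.554). From day 1.5 to day 7 the median was 0.08 (all genes −0.01, 1.32% called, 0.43% higher and 0.894% lower), with 63 members positive and 14 negative, where 48.8% of all genes were positive, and 0.09 after fly scaling (all genes 0.01). This median rested on the vector libraries of day 7: it was 0.02 without repeat 1 and 0.16 without repeat 2. Here 4 members had an unadjusted p below 0.05, and the smallest were those of Mrps28 (0.40 ± 0.12), Mrpl44 (0.26 ± 0.09) and Mrpl42 (0.31 ± 0.13), with edgeR adjusted p = 0.147, 0.253 and 0.329.

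With TMM scaling, member medians differed more between the library series than by genotype or day. With fly scaling this did not hold, since the medians for spleen cKO by day (−0.36) and spleen genotype at day 3.5 (−0.30) were farther from zero than those between series given here. In CH12F3 67 of 77 members were higher in the second series than in the first, with a median log2 difference of 0.32, against 0.00 over all genes. In spleen 58 of 77 were higher with a median of 0.27, against −0.05. In CH12F3 40 members were called higher and 2 lower, where 20.1% and 18.4% of all genes were so called (38.5% in all). In spleen 38 were called higher and 4 lower, where the shares were 18.3% and 22.1% (40.3% in all). In the fit over both systems 45 members were higher and 5 lower, where 43.2% of all genes were called, 19.9% higher and 23.3% lower. With fly scaling the medians were 0.27 in CH12F3 (all genes −0.04) and −0.28 in spleen (all genes −0.60). A shift common to all genes leaves the member median above that of all genes, so this is no separate result. The sign in spleen turned. The calls turned with it: with fly scaling 13 members were higher and 0 lower in CH12F3, and 1 was higher and 23 lower in spleen. Mrps16 differed by 1.01 ± 0.17 and Mrps14 by 0.99 ± 0.10 in CH12F3 (edgeR adjusted p = 0.000514 and 1.59e-05), and Mrps25 and Mrpl54 were among those lower, Mrps25 by −0.33 ± 0.14 (edgeR adjusted p = 0.0756) and Mrpl54 by −0.38 ± 0.11 (edgeR adjusted p = 0.0123) in CH12F3. Mitochondrial ribosomal RNA moved the other way: it was 0.984% to 2.64% of CH12F3 counts in the first series and 0.270% to 0.566% in the second, and 2.44% to 3.08% against 0.0700% to 0.240% in spleen. Libraries were depleted of ribosomal RNA, so these shares need not follow its level in the cells. What differed between the series beyond library number is not given in the labels, and its part in these values was not tested.

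**Figure D5:**
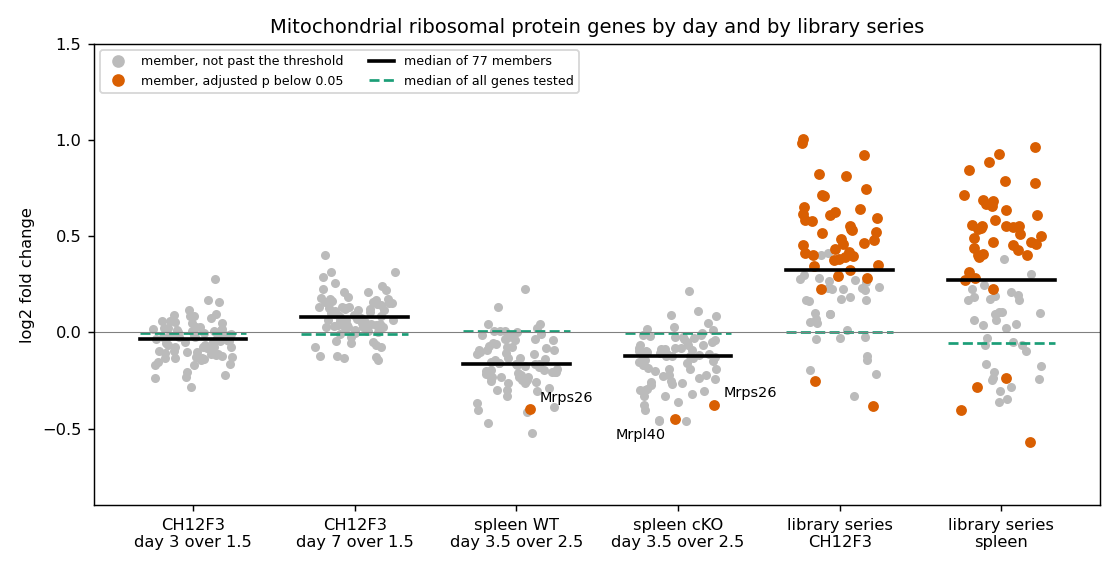
Log2 fold change of each of the 77 members (vertical axis) between days (4 columns on the left) and between the second and first library series (2 columns on the right); orange points passed an edgeR adjusted p of 0.05, black bars are member medians and dashed green bars medians of all genes. Members sit below zero by day in spleen, at medians of −0.17 and −0.13, and above zero between series, at 0.32 and 0.27.

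CH12F3 cells with ELOF1 at day 1.5 were set against WT spleen cells at day 2.5, the earliest ELOF1-proficient group of each system, which also differ in stimulus and day. With TMM scaling 11 members were higher in CH12F3 and 34 lower, 45 of 77 in all, where 61.8% of all genes were called (28.9% higher and 32.9% lower), and the median was −0.20 against −0.06 over all genes. With fly scaling 59 were higher and none lower. The median was then 0.73, against 0.88 over all genes, so the direction of the family depends on the scaling. A change of scaling shifts all genes of a library alike. The place of the family below the median gene could therefore hardly change and is no separate result. Mrpl13 was the member with the highest ratio, at 1.03 ± 0.08 by TMM, ahead of Mrpl39 (0.79 ± 0.15), Mrps5 (0.74 ± 0.13), Mrpl53 (0.64 ± 0.12), Mrpl57 (0.60 ± 0.13) and Mrpl52 (0.52 ± 0.15). Each of these 6 was also higher with fly scaling, which moved all genes upward in this comparison. At the other end were Mrps18c (−1.05 ± 0.28), Mrpl51 (−1.03 ± 0.14), Mrps34 (−0.95 ± 0.15), Mrpl41 (−0.91 ± 0.12), Mrps7 (−0.86 ± 0.10) and Mrpl49 (−0.86 ± 0.12), whose values with fly scaling lay between −0.14 and 0.07 and passed no test. The edgeR adjusted p of these 12 ran up to 0.00351. Mrps34 shares exon sequence on the same strand with Nme3, and Mrpl53 with Gm42688, so the counts of both are uncertain.

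Genes that work with the mitochondrial ribosome were counted from lists of the same pathway. None of their members was called by genotype in CH12F3. In spleen the calls are to be read against the shares of all genes called, 5.18% at day 2.5 (2.82% higher and 2.36% lower) and 2.07% at day 3.5. At day 2.5, the assembly factors (30 tested) had 1 higher, Mrm2, a methyltransferase of mitochondrial ribosomal RNA (0.50 ± 0.14, edgeR adjusted p = 0.0471), and 1 lower, Tfb1m, another such enzyme (−0.50 ± 0.13, adjusted p = 0.0334). Among the mitochondrial aminoacyl-tRNA synthetases (20 tested), Aars2 (−0.81 ± 0.11, adjusted p = 0.000420) and Wars2 (−0.68 ± 0.15, adjusted p = 0.0143) were lower. Of 15 translation factors 1 was lower, Lrpprc, which stabilises mitochondrial mRNAs (−0.22 ± 0.06, adjusted p = 0.0470). Of 17 genes for mitochondrial DNA transcription and maintenance 1 was higher, Polg, the mitochondrial DNA polymerase (0.27 ± 0.07, adjusted p = 0.0266). At day 3.5 Aars2 (−0.67 ± 0.14, adjusted p = 0.0166) and Polg (0.38 ± 0.08, adjusted p = 0.0248) were called in the same directions.

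None was called among the 5 mitochondrial ribosomal proteins with other names, the 13 mitochondrial mRNAs, the 2 mitochondrial ribosomal RNAs, 13 tested regulators of mitochondrial biogenesis or 19 import and chaperone genes in either spleen genotype comparison. Since libraries were depleted of ribosomal RNA, counts of the 2 mitochondrial ribosomal RNAs need not follow their level in the cells. Of 81 cytosolic ribosomal protein genes 2 rose (Rpl22, 0.35 ± 0.07, and Rps15, 0.25 ± 0.07) and 1 fell (Rpl22l1, −0.64 ± 0.12) in cKO cells at day 2.5, with edgeR adjusted p = 0.0110, 0.0391 and 0.00646, a share of calls below that of all genes. By day in spleen, where 5.45% of all genes were called in WT and 3.4% in cKO, the import and chaperone genes had medians of −0.21 in WT and −0.14 in cKO with no call, Mars2 fell in WT (−0.36 ± 0.10, adjusted p = 0.0480), and Gadd45gip1, a large-subunit protein with another name, fell in cKO (−0.46 ± 0.09, adjusted p = 0.00846). The mitochondrial mRNAs, which the ribosome translates, had medians of 0.27 in WT and 0.02 in cKO with no call.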

How the data were processed

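Total RNA was depleted of ribosomal RNA and made into strand-specific libraries, per the labels' protocols, with polyadenylated Drosophila S2 RNA added per cell as a spike-in. The authors deposited raw counts per gene, 1 table per cell system. Per the submitters' processing notes, the tools were Bowtie2 and featureCounts and the builds mm10 and dm6. Tool versions, strand setting and the handling of multiply mapped reads are not given in the sources, and 26 of the 77 members share exon sequence with another gene, 23 of them on the opposite strand. No column belonged to a sample outside the series (0).

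Fly genes were set aside. For mouse genes, edgeR 4.0.16 (with limma 3.58.1, under R 4.3.3) gave the quasi-likelihood test, with TMM scaling, filterByExpr (minimum count 10) and 1 fit per system over 16 libraries with terms for group and library series, or 1 fit over all 32 libraries for the comparison of systems. This left 14201, 13367 and 15639 genes, over which p-values were adjusted by Benjamini-Hochberg, with 0.05 as the threshold. Where a sentence names no tool, its adjusted p is edgeR's. CPM values are counts after TMM scaling, and fold changes are log2 ± SE. Libraries held 7112130 to 16359477 mouse counts. The script was tested on simulated data. Alternatives were DESeq2 1.42.0, fly scaling, no filter, no series term, each series alone, fewer groups, a replicate block and each library left out. In CH12F3, same-numbered libraries of both genotypes deviated together (r = 0.40 to 0.71 over genes for all 8 pairs). At day 1.5, r was 0.47 to 0.53 once the difference between series was removed. Where 2 libraries are centred on their mean, both pairs give the same r, so the 8 values are not independent. The numbers were taken to pair libraries in the replicate block only. Genotype p-values are from the fit without that block unless stated. In spleen, same-numbered libraries of both genotypes deviated together for the first-series repeats 4 and 5 of day 2.5 (r = 0.81 and 0.83). For the second-series repeats r ran from −0.30 to 0.49.

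The members and the lists were chosen with earlier results of these data known. Named members are, per comparison, all called members up to 12, otherwise the 6 largest rises and 6 largest falls, and the 3 smallest p-values where none was called, with Mrps28 and Mrpl15 in every genotype comparison and the 5 highest and 5 lowest levels per system; other lists give up to 3 called genes each, and 1 result among them is not reported here. Mrps6, Mrps14, Mrps27, Mrpl48, Mrpl1 and Mrps9 were also named after their values were seen, as were Mrps16, Mrps25 and Mrpl54 between library series. Positions are those of the deposited tables, exon and intron numbers are from GENCODE M21 (mm10), and promoter sequences are from RefSeq (GRCm38.p6). Python 3.11.15, NumPy 2.4.6, pandas 2.3.3 and matplotlib 3.10.9 were used for tables and plots.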

Additional observations from a re-analysis of the deposited data

How the results depend on the processing

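Of 424 alternative values for the 26 counts and medians over the members, 366 stayed within 1.5 times the reported count or within 1 SD between libraries of the reported median. This is a lenient measure. The SD was log2 0.17 in CH12F3 and 0.14 in spleen. It includes the difference between library series and exceeded the size of most of these medians. A turn of sign within it and a count of 0 that stayed at 0 were counted as staying. Calls of single members were few and depended on the model. For CH12F3 genotype at day 1.5, 0 members were called with fly scaling, without the series term, with either series alone and with only the compared groups, and 0 to 2 when a library was left out. For days 3 and 7 pooled, 1 was called with DESeq2 and 1 with the replicate block. For spleen genotype at day 2.5, 0 were called with fly scaling, without the series term and in the first series alone, and 1 with only the compared groups. At day 3.5, 0 were called without the series term, 3 in the second series alone, and 0 when any library was left out. For spleen WT by day, 0 were called with fly scaling, without the series term and with only the compared groups, 3 without the filter, 12 in the second series alone and 15 with the replicate block, and 0 to 4 with a library left out. For spleen cKO by day, 0 were called with fly scaling, without the filter, without the series term and with only the compared groups, 4 with DESeq2, 7 in the second series alone and 9 with the replicate block, and 0 to 2 with a library left out. For CH12F3 against spleen, 2 were called in the first series alone and 28 with only the compared groups.

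Medians moved by more than the spread between libraries with fly scaling, to −0.19 for CH12F3 genotype at day 3, −0.19 and −0.30 for spleen genotype at days 2.5 and 3.5, −0.36 for spleen cKO by day, −0.10 for the difference of the spleen genotype effects and 0.73 for CH12F3 against spleen. Without the series term the median for CH12F3 day 7 over day 1.5 was 0.26, that for day 3 over day 1.5 turned from −0.04 to 0.13, and those for spleen by day shrank to −0.07 in WT and cKO. With a library left out, the CH12F3 day 7 median ran from 0.02 to 0.16. Signs turned for Mrpl15 in spleen genotype at day 2.5 without WT repeat 5 (0.0025, in a range of −0.22 to 0.0025 over the libraries left out), and with fly scaling for Mrpl41 (0.0344), Mrps7 (0.0707) and Mrpl49 (0.0743) between systems. The replicate block in spleen used numbers that the data showed to pair libraries only for repeats 4 and 5 of day 2.5. It changed no other count of called members beyond 1.5 times. No paired analysis was possible for CH12F3 by day because the repeat numbers there coincide with the library series, nor between systems, where they share only a number. The cause of these changes was not tested. The counts behind Mrps28, 80 to 343 per library, limit how small a change in it could be seen.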
